A study of Homo sapiens with 6 samples.

Results

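The kinesin motor superfamily was described in RH36 cells, an embryonal rhabdomyosarcoma line without the PAX3/FOXO1 translocation, after transfection with a synthetic miR-27a precursor. The members were all array probes whose gene name is KIF or KIFC followed by a number and, in some, a letter from A to C. This gave 61 probes for 38 genes among 41000 probes with 30484 gene names, and 58 probes for 36 genes were kept among the 36469 probes measured on at least 5 of the 6 arrays. The family was taken up because the KIF14 signal was higher after pre-miR-27a in this same comparison, so the KIF14 values are given as a description with no test, and the counts over the family support nothing by themselves.

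The pre-control group held 3 arrays of RH36 cells given a negative control precursor, and the pre-miR-27a group held 3 arrays of the same line given the miR-27a precursor. Per the labels both precursors were used at 10 nM with siPORT, a lipid reagent, the miRNA was checked after 24 h, and the pre-miR-27a arrays are described at 48 h, with no time given for the pre-control arrays. The study's methods describe another dose, reagent and time, and which holds for these arrays was not settled. All cells came from 1 line, and the precursor is a transient excess of a miRNA, given to the whole culture.

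Kinesins are motor proteins that use ATP to move along microtubules or, in some families, to take microtubules apart at their ends. One group builds the mitotic spindle, moves chromosomes and completes cytokinesis, and its messages are known to accumulate in late S, G2 and M phase. Another group carries vesicles, mitochondria and mRNA through the cytoplasm at all stages of the cycle, and further members work in cilia, centrioles and signalling.

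The agent itself is shown first. RefSeq gives the mature strand as below (GRCh38.p14, chr19:13836447-13836467, minus strand), with the seed, bases 2 to 8, in capitals.
hsa-miR-27a-3p: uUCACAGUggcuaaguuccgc

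Promoter windows are shown as background, and a link between their motifs and the values on the arrays was not tested. RefSeq windows of 250 bases before to 50 after the annotated start (GRCh38.p14) were found for 30 of the 38 kinesin genes. They were searched on both strands for CCAAT and for TTTGAA, the cell cycle genes homology region (CHR), and the search letters did not overlap each other. Matches are in capitals, and a match on the reverse strand reads ATTGG or TTCAAA. The CHR letters were in the windows of 7 of 11 mitotic kinesins (63.6%), KIF4A, KIF11, KIF14, KIF15, KIF18A, KIF23 and KIFC1, in 1 of 11 transport kinesins, KIF5B, and in 0 of 8 other kinesins, beside 18.2% of 27305 genes with a window. CCAAT was in 8 of 11 mitotic (72.7%), 4 of 11 transport (36.4%) and 3 of 8 other kinesins (37.5%), beside 39.7% of all genes. Below, KIF14 and KIF11 hold both motifs, KIF20A holds CCAAT on the reverse strand at 2 places, KIF2C holds neither, and KIF3B, a transport kinesin, holds CCAAT alone. In KIF11 the CCAAT match began 53 bases and the CHR match 28 bases before the start, and in KIF14 the CCAAT match began 22 bases before it with the CHR letters just past it. These are letter matches and not binding sites.
KIF14, chr1:200620702-200621001, minus strand: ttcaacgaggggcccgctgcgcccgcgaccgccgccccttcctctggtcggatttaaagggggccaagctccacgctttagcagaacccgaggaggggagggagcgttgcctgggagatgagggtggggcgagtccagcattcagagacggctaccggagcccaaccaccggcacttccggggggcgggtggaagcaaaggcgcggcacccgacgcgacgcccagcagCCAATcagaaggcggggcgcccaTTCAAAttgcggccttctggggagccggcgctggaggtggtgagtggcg
KIF11, chr10:92592880-92593179, plus strand: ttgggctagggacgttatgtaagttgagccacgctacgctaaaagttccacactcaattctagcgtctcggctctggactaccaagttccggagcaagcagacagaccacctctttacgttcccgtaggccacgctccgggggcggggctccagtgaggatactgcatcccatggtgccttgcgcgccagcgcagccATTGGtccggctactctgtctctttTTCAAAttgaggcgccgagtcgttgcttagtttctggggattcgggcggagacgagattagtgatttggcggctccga
KIF20A, chr5:138178862-138179161, plus strand: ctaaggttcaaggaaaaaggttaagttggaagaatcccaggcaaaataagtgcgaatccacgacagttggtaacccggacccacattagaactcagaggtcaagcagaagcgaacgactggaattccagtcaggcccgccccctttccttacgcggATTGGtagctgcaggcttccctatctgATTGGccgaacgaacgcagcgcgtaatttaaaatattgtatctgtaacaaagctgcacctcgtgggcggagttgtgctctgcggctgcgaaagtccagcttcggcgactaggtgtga
KIF2C, chr1:44739587-44739886, plus strand: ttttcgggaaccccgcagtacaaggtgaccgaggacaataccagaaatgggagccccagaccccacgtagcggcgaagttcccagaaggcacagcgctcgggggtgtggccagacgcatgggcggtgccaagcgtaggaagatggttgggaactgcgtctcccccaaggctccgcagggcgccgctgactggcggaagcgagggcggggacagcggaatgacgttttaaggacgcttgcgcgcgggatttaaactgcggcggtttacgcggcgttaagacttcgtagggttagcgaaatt
KIF3B, chr20:32277401-32277700, plus strand: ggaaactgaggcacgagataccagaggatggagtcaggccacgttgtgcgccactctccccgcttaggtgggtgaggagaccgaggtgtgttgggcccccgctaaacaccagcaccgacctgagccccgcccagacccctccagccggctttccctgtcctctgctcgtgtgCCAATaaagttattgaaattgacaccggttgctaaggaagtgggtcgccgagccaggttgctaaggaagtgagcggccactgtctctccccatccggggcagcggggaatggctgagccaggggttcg

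Every array held 43376 spots, of which 69.9 to 73.9% were well above background on the pre-control arrays and 74.1 to 78.0% on the pre-miR-27a arrays. Spots not found numbered 1559 to 1750 against 3487 to 4153, the local background was 74.5 to 76 against 52.5 to 53 intensity units, and no spot was saturated. The pre-control arrays shared 1 slide and the pre-miR-27a arrays another, so the slide and the treatment cannot be told apart for any value below. The lineage was checked on marker genes. Of 7 muscle genes kept, MYOD1, MYOG, MYF6, DES, PAX7, CHRNA1 and CDH15 all stood well above background on every array, and PTPRC, CDH1, EPCAM and PECAM1, markers of leukocytes, epithelium and endothelium, were on none. The CD3E and CD14 probes also stood above background on every array, and the CDH5 probe on 3. The CD14 probe and a CD3E probe were lower on the pre-miR-27a arrays, by -0.71 (limma adjusted p = 0.0223) and -0.44 (adjusted p = 0.0348). Another CD3E probe differed by -0.05 (limma adjusted p = 0.874), with an overlap of the groups. The part of other cells in the kinesin values was not tested. Of the 58 kinesin probes kept, 45 cleared the background on every array and 4 on none.

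Leaving KIF14 aside, 4 of the other 57 kinesin probes (7.02%) passed limma's test at an adjusted p of 0.05, beside 7.83% of all probes. Higher on the pre-miR-27a arrays were 3 of them (5.26%, beside 3.95% of all), 1 each for KIF27, KIF1B and KIF3B, and lower was 1 (1.75%, beside 3.88% of all), for KIF5A. Because the family was chosen on this contrast, nothing is read from these shares. The arrays of the groups did not overlap for 19 of the 57 probes (33.3%), 13 higher and 6 lower, beside 32.5% of all probes. Without pre-control replicate 1 the KIF27, KIF1B and KIF3B probes still passed and KIF5A did not, while 3.50% of all probes passed. Without pre-control replicate 3 none of the kinesin probes passed and 81 of all 36469 did, and without any of the other 4 arrays 0 of all probes passed, so the losses were those of the whole array. In these 5 fits 10 to 13 kinesin probes, KIF14 included, had an unadjusted p under 0.05.

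The arrays were taken as paired by replicate number, a choice made from these same data and not stated by the labels. The study's results name a paired form of SAM, a permutation test, without saying which arrays were paired. With the number as a block in the limma fit 7 of the 57 kinesin probes passed (12.3%, beside 14.9% of all), all higher. The block kept KIF27, KIF1B and KIF3B, added the brightest probes (those with the highest mean signal of a gene) of KIF11 and KIF3B and further probes of KIF1B and KIF6, and lost KIF5A. Of these 57 probes, 49 were measured on all arrays, and 19 of them (38.8%) were higher on the pre-miR-27a array in each of the 3 same-numbered pairs, beside 29.4% of all such probes.

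**Figure D1:**
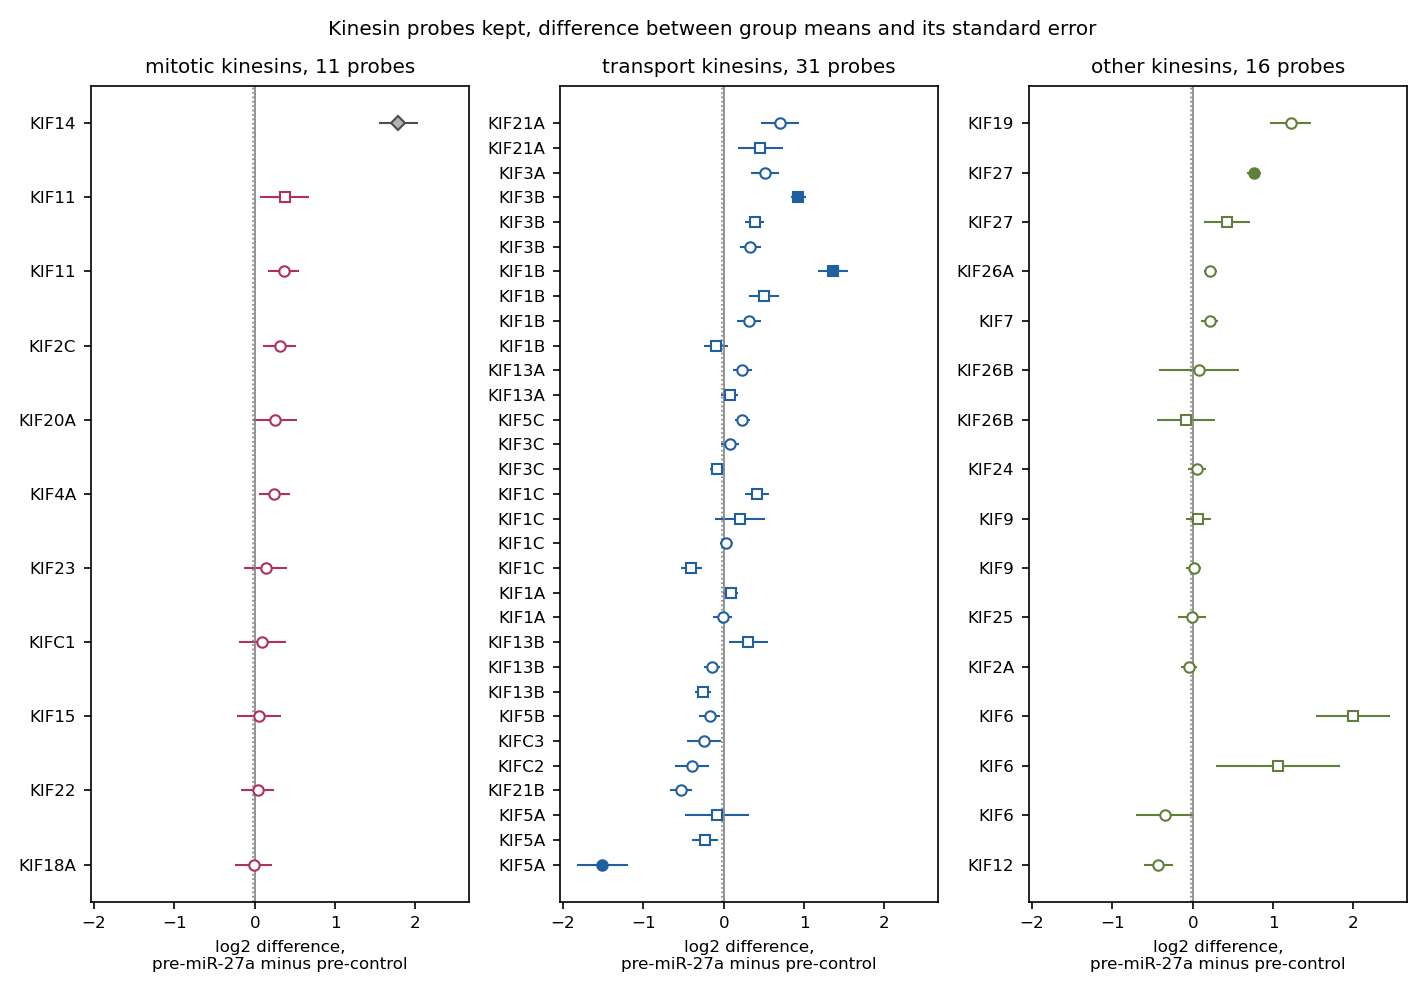
Difference in normalized log2 signal between the pre-miR-27a and the pre-control mean (x axis, log2) for the 58 kinesin probes kept, in 3 panels by role, with 1 row per probe. Circles are the brightest probe of a gene, squares are its other probes, filled symbols passed limma at an adjusted p of 0.05, the grey diamond is KIF14, for which no test is given, bars are standard errors, and the dotted line is the median of all probes (-0.02). KIF14 lies apart at 1.79 among mitotic kinesins whose other genes lie between -0.01 and 0.36.

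KIF14 is a mitotic kinesin that binds PRC1 and citron kinase and acts at the midbody late in cytokinesis. Its single probe (chr1:198789212-198789271 in hg18, as the files give it, minus strand) read 8.36, 8.20 and 7.90 log2 units on pre-control arrays 1 to 3 and 10.29, 10.06 and 9.49 on pre-miR-27a arrays 1 to 3. The groups lay far apart, and in both of them replicate 3 was the lowest. The means were 8.16 ± 0.23 and 9.95 ± 0.41 (SD, n = 3 each), a difference of 1.79 (SE 0.24) or 3.46-fold, and the same-numbered pairs differed by 1.92, 1.86 and 1.58. The median difference of the other 57 kinesin probes was 0.09, which put KIF14 1.70 log2 units above it. A KIF6 probe, well above background on no pre-control array and not found on pre-miR-27a array 2, differed by more than KIF14, by 1.99. With the replicate number as a block this KIF6 probe differed by 1.57, less than KIF14. The second-highest difference of a mitotic kinesin gene was 0.36, for KIF11, so the KIF14 value was not shared by the genes of its class.

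KIF11, the kinesin-5 motor that pushes spindle poles apart, read 11.12, 11.33 and 10.79 on the pre-control arrays and 11.55, 11.64 and 11.15 on the pre-miR-27a arrays by its brightest probe. The groups overlapped, yet each pre-miR-27a array lay above the pre-control array of its number, by 0.43, 0.30 and 0.36. The difference of 0.36 (SE 0.19) had an adjusted p of 0.317 in limma and 0.0427 with the replicate block. A second KIF11 probe differed by 0.37 (SE 0.30, adjusted p = 0.512, or 0.0576 with the block). KIF2C, a kinesin-13 that takes microtubules apart at kinetochores, read 13.84, 13.85 and 13.30 against 14.15, 14.09 and 13.68. Its pairs differed by 0.31, 0.24 and 0.38, and the difference of 0.31 (SE 0.21) had an adjusted p of 0.417, or 0.0527 with the block. KIF20A, which carries the chromosomal passenger complex to the spindle midzone, read 11.74, 11.34 and 11.11 against 12.16, 11.46 and 11.32. Replicate 1 was the highest in both groups, and the difference of 0.25 (SE 0.28) had an adjusted p of 0.637. It was the one kinesin probe with 10 spots per array, whose SD within an array was 0.0364 to 0.0546 log2 units, so the spread between arrays was several times that between spots.

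The other mitotic kinesins differed less. KIF4A, a chromokinesin of the midzone, differed by 0.24, KIF23, the motor of centralspindlin, by 0.13, KIFC1, which bundles spindle microtubules towards the poles, by 0.10, KIF15, which backs up KIF11, by 0.05, KIF22, a chromokinesin, by 0.04, and KIF18A, which aligns chromosomes, by -0.01. None of these 6 passed limma with or without the block (beside 14.1% and 7.40% of all gene names by their brightest probe). KIF4A has a near-identical copy, KIF4B, whose message its probe may also read. KIF2B, a close relative of KIF2C, was the mitotic kinesin not kept, and was well above background on no array. KIF20B, a further mitotic kinesin that the array lists under an older name, fell outside the naming rule and differed by 0.15 (SE 0.18, adjusted p = 0.673).

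**Figure D2:**
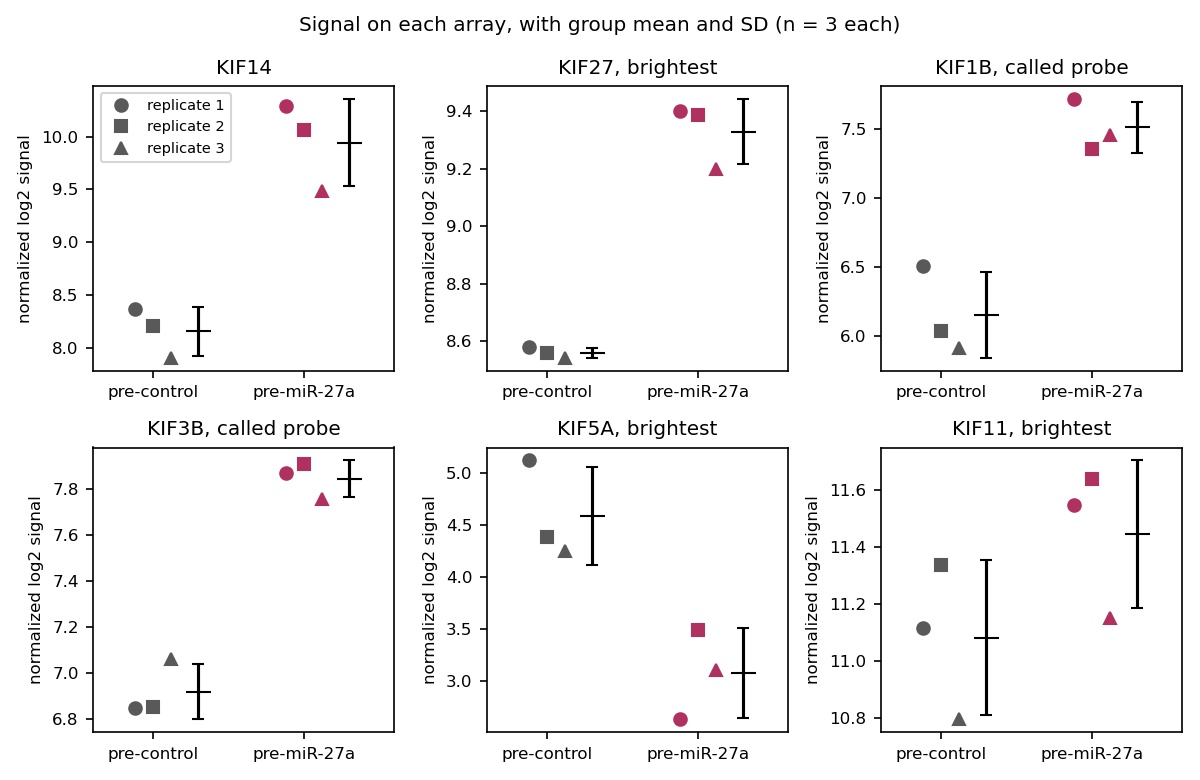
Normalized log2 signal (y axis, a separate range in each panel) on each of the 6 arrays for 6 kinesin probes, with the symbol giving the replicate number and bars the mean and SD of each group (n = 3). The groups do not overlap for KIF14, KIF27, KIF1B, KIF3B and KIF5A, and overlap for KIF11, whose pairs differ by 0.30 to 0.43.

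Among the transport kinesins, 15 of 16 genes were kept, 8 with a higher and 7 with a lower brightest probe. KIF3A and KIF3B form the heterotrimeric kinesin-2 motor that carries cargo along the cilium and in the cytoplasm. KIF3A read 10.67, 10.23 and 10.21 on the pre-control and 10.75, 11.10 and 10.81 on the pre-miR-27a arrays, which did not overlap. The difference of 0.51 (SE 0.17) had an adjusted p of 0.136. All 3 KIF3B probes were higher without overlap between the groups. The brightest read 12.39, 12.09 and 12.19 against 12.75, 12.45 and 12.47, a difference of 0.33 (SE 0.13, adjusted p = 0.186, or 0.0442 with the block). The KIF3B probe that rose read 6.85, 6.85 and 7.06 against 7.87, 7.91 and 7.76, a difference of 0.93 (SE 0.10, limma adjusted p = 0.0176). KIF3C, which can replace KIF3B as partner of KIF3A, differed by 0.08 and -0.08 by its pair of probes.

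KIF1B, a kinesin-3 motor of mitochondria and synaptic vesicle precursors, had 4 probes. The one that rose read 6.51, 6.04 and 5.91 against 7.72, 7.36 and 7.46, a difference of 1.36 (SE 0.19, limma adjusted p = 0.0214), and no array of one group reached the other. Its brightest probe read 12.64, 12.32 and 12.72 against 12.87, 12.68 and 13.07, with an overlap, and differed by 0.31 (SE 0.15, adjusted p = 0.280). Of the other 2 KIF1B probes, 1 differed by 0.50 (SE 0.19, adjusted p = 0.178, or 0.0363 with the block) and 1 by -0.09 (SE 0.15, adjusted p = 0.759). The relatives KIF1A and KIF1C differed by -0.01 and 0.03 by their brightest probes.

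KIF5A, the neuronal heavy chain of conventional kinesin, was the kinesin that passed the test as lower, on signals near background. Its brightest probe read 5.12, 4.38 and 4.25 on the pre-control and 2.63, 3.49 and 3.10 on the pre-miR-27a arrays. It was well above background on 1 pre-control array and on no pre-miR-27a array, so no fold is given. The groups did not overlap (limma adjusted p = 0.0475, or 0.0805 with the block), and with normexp background correction the difference was -0.33 (adjusted p = 0.0925). The other 2 KIF5A probes were well above background on no array. KIF5B, the heavy chain that most cells use, differed by -0.18, and KIF5C by 0.23.

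KIF21A, a kinesin-4 motor that restrains microtubule growth, was not found on pre-control array 1 and read 8.33 and 7.94 against 8.77, 9.18 and 8.57, a difference of 0.70 (SE 0.23, adjusted p = 0.159). Its relative KIF21B was not found on pre-miR-27a array 1 and read 9.61, 9.81 and 9.80 against 9.36 and 9.06, a difference of -0.53 (SE 0.14, adjusted p = 0.0947). These relatives thus lay on opposite sides of 0, each without overlap between the groups, though neither passed the test and each was fitted on 5 arrays. KIF17, a motor of dendrites and cilia, was the transport kinesin not kept, since 1 spot in each group was not found. Its processed signals, the spots not found included, were 7.72, 7.51 and 7.55 against 6.90, 6.80 and 7.15. KIF16B, which the array lists under an older name outside the rule, had a probe that read 8.23, 8.06 and 8.41 against 9.60, 9.69 and 9.46, a difference of 1.35 (SE 0.12, limma adjusted p = 0.0176), while its brightest probe differed by 0.31 (SE 0.07, adjusted p = 0.0651).

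Among the 11 other kinesin genes, KIF27, a relative of KIF7 in the motile cilium, rose. Its brightest probe read 8.58, 8.56 and 8.54 on the pre-control and 9.40, 9.39 and 9.20 on the pre-miR-27a arrays. The control values lay close together (SD 0.0180, n = 3), far under the pre-miR-27a values, and the difference was 0.77 (SE 0.09, limma adjusted p = 0.0176). As the mean over both KIF27 probes the difference was 0.60 with an adjusted p of 0.0964, so the call was that of the brightest probe. A dim second probe, well above background on 2 pre-miR-27a arrays alone, differed by 0.42 (SE 0.29, adjusted p = 0.430). KIF7, the cilium tip kinesin of Hedgehog signalling, differed by 0.21 (SE 0.11, adjusted p = 0.297).

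Further members of this class were dim. KIF19, which limits cilium length, read 2.21, 2.14 and 2.66 against 3.26 and 3.85, was not found on pre-miR-27a array 3 and was well above background on 1 array (adjusted p = 0.0619). With normexp background correction its difference was 0.23, so no fold is given. KIF12 read 2.77, 3.01 and 2.46 against 2.34 and 2.30, was well above background on no array, so these values have no order. KIF6 had probes on both sides of 0. Its brightest was not found on pre-control array 1 and read 5.52 and 6.03 against 4.99, 5.27 and 6.02, a difference of -0.35 (SE 0.36, adjusted p = 0.616). Another KIF6 probe read 4.04, 2.80 and 4.11 against 5.44 and 5.84, with pre-miR-27a array 2 not found. It was well above background on no pre-control array, and had an adjusted p of 0.0759, or 0.0361 with the block. Its complete pairs differed by 1.41 and 1.73. A further KIF6 probe read 4.88, 2.17 and 2.12 against 4.08, 4.29 and 3.98, with an overlap of the groups. It differed by 1.06 (SE 0.77, limma adjusted p = 0.464). KIF2A, the depolymerase that also trims neurites, KIF9, KIF24 and KIF25 differed by -0.04, 0.01, 0.05 and -0.01.

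Probes of the same gene did not always give the same value, and the difference between probes was not tested. Of the 14 kinesin genes with more than 1 probe kept, 7 had differences on both sides of 0, and the median range between a gene's probes was 0.30 log2 units. In KIF1A, KIF3C and KIF26B both probes lay within 1 standard error of 0. KIF1C, a motor of vesicles and mRNA, differed by 0.03 by its brightest probe, by 0.41 (SE 0.15, adjusted p = 0.164) by another and by -0.41 (SE 0.13, adjusted p = 0.130) by a further one, the latter 2 each without overlap between the groups. The brightest KIF1B probe lies at chr1:10290911-10290970 (hg18), the probe that rose at chr1:10360235-10360294, 69.3 kb downstream, and the probe at -0.09 at chr1:10363837-10363896, 72.9 kb downstream. The KIF3B probe that rose lies at chr20:30367995-30368054 (hg18), 17.9 kb upstream of the brightest at chr20:30385909-30385968. The KIF27 probes, at chr9:85693261-85693320 and chr9:85641581-85641640 (hg18), lie 51.7 kb apart. In KIF1B and KIF3B the probe that rose was thus not the brightest. Which transcripts each probe reads was not analysed here.

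**Figure D3:**
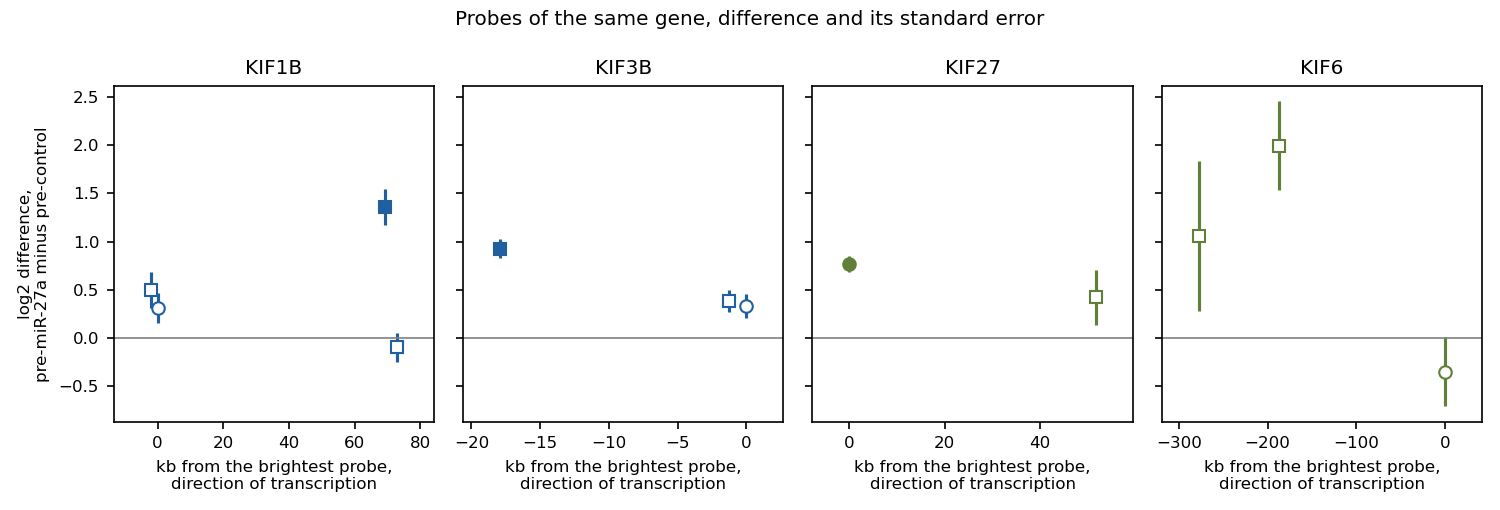
Difference in log2 signal with its standard error (y axis) for each probe of KIF1B, KIF3B, KIF27 and KIF6, against its distance in kb from the gene's brightest probe in the direction of transcription (x axis, a separate range in each panel). Circles are the brightest probes and filled symbols passed limma at an adjusted p of 0.05; in KIF1B the probe at 1.36 and the probe at -0.09 are neighbours.

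Set against each other by the brightest probe of each gene, 9 of 10 mitotic kinesins were higher and 1 lower on the pre-miR-27a arrays. Their median difference was 0.19. Without KIF14, on whose rise the family was chosen, 8 of 9 were higher and 1 lower, with a median of 0.13. The 15 transport kinesins had a median of 0.03 and the 11 other kinesins of 0.05, beside -0.04 over the brightest probe of all 27328 gene names. Of these gene names 11929 were higher and 15399 lower. In all 3 pairs, 6 of 10 mitotic kinesins were higher and 0 lower, or 5 of 9 and 0 without KIF14. Of 12 transport kinesins measured on every array 5 were higher and 4 lower in all 3 pairs. Of 23648 gene names measured on every array, 6392 were higher and 8382 lower in all 3 pairs. The mitotic median with KIF14 included exceeded the transport median by 0.16. This gap was -0.07 without pre-miR-27a replicate 1 and 0.36 without pre-miR-27a replicate 3. Leaving out a single array also leaves its replicate number in 1 group alone. With both arrays of replicate 3 left out the gap was 0.21. The median differences of pairs 1 to 3 were 0.25, 0.10 and 0.19 for mitotic kinesins, or 0.19, 0.09 and 0.19 without KIF14. For transport kinesins they were -0.10, 0.07 and 0.13. The mitotic median with KIF14 included was 0.01 without pre-control replicate 3.

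The mitotic kinesins varied together between the replicates, a measure that the choice of the family did not use, though the pattern was noticed in these data. In all 10 of the 10 mitotic genes replicate 3 was the lowest array of both groups. Averaged over the groups, replicate 3 deviated from the gene's mean by -0.48 to -0.28 log2 units (median -0.32), a wider step than the median difference between the groups. Replicate 3 was the lowest of both groups in 1 of 12 transport kinesins and 2 of 8 other kinesins, and in 4463 of 23648 gene names. The median deviation of replicate 3 was -0.03 in the transport and -0.01 in the other kinesins, beside -0.01 over all gene names. An F test of the replicate number in limma gave an unadjusted p under 0.05 for 10 of 10 mitotic and 4 of 15 transport genes and for 23 of 58 kinesin probes (39.7%, beside 26.9% of all probes), and after adjustment for 0 of 58 kinesin probes and 0 of 36469 probes. The replicate number was also the position on the slide, so the culture and the position cannot be told apart. In bulk RNA, fewer cells in mitosis and less of these messages per cell cannot be told apart either.

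**Figure D4:**
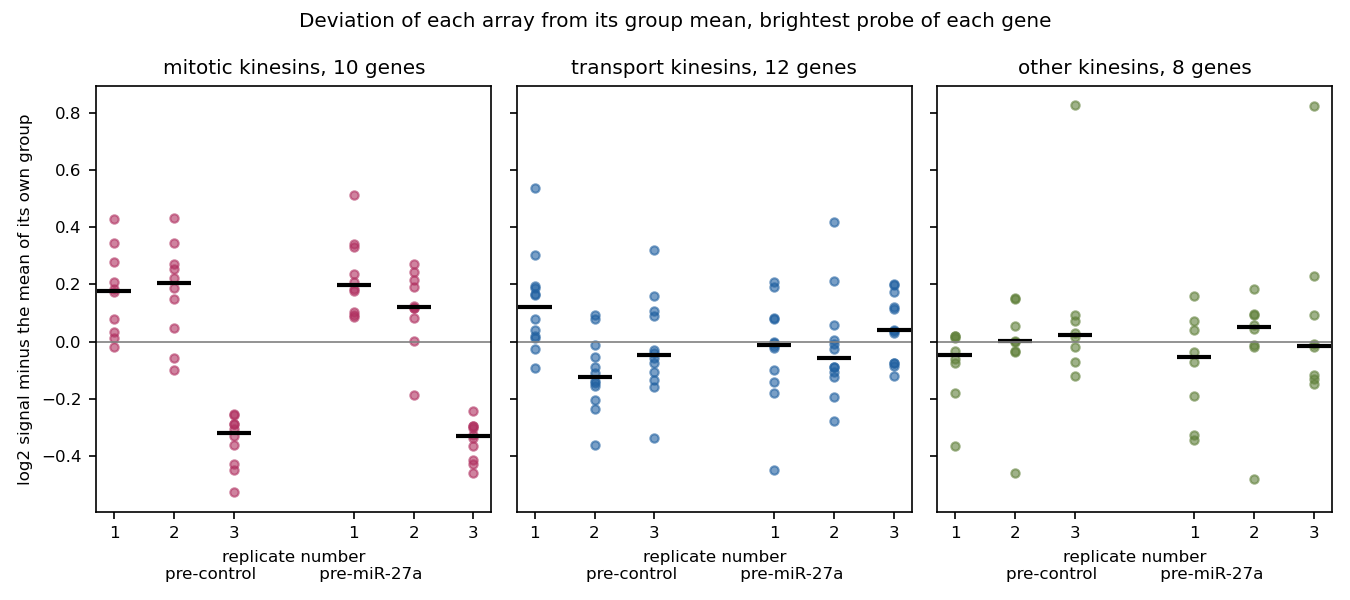
Log2 signal of the brightest probe on each array minus the mean of its own group (y axis), by group and replicate number (x axis), for the 10 mitotic, 12 transport and 8 other kinesin genes measured on all 6 arrays. Each point is 1 gene and black bars are medians; replicate 3 is below 0 for every mitotic gene in both groups, and the point near 0.82 in the right panel is KIF26B.

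KIF26B, a kinesin-11 member linked to cell adhesion and polarity, ran the other way. It read 6.96, 6.87 and 8.15 on the pre-control and 7.06, 6.92 and 8.23 on the pre-miR-27a arrays, so replicate 3 was the highest in both groups by more than 1 log2 unit, while the groups differed by 0.08 (SE 0.49, adjusted p = 0.946). KIF26B was singled out after its values were seen. Of the 7 muscle genes, 5 were also highest in replicate 3 over the groups, beside 6961 of 23648 gene names measured on every array. Among the 5, MYF6 read 9.57, 7.76 and 10.99 against 9.47, 7.40 and 11.02. No muscle gene of the 7 was higher on the pre-miR-27a arrays by its brightest probe. None passed limma without the block (beside 7.40% of all gene names by their brightest probe), and 3 did with it (42.9%, beside 14.1%). These were MYOG (-0.95, adjusted p = 0.0334), MYOD1 (-0.45, adjusted p = 0.0363) and CDH15 (-0.35, adjusted p = 0.0457), all lower. A second probe of CHRNA1 rose by 0.95 (adjusted p = 0.0216).

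Partners of the mitotic kinesins were taken from a list, which also holds CENPE, itself a mitotic kinesin (kinesin-7) whose name falls outside the naming rule, with a difference of -0.005. Of 15 partners 13 were higher and 2 lower, with a median of 0.15, 0 passed limma without the block (beside 7.40% of all gene names by their brightest probe) and 2 with it (13.3%, beside 14.1%). These were INCENP, the scaffold of the passenger complex, with 0.60 (SE 0.19, adjusted p = 0.133, or 0.0431 with the block), and RACGAP1, which forms centralspindlin with KIF23, with 0.34 (SE 0.25, adjusted p = 0.470, or 0.0425 with the block). PRC1 and CIT, which bind KIF14, differed by 0.24 and 0.14 with adjusted p of 0.593 and 0.667. AURKB, the kinase of the passenger complex, differed by -0.26 (SE 0.27, adjusted p = 0.617). Replicate 3 was the lowest of both groups in 14 of 15 partners, all but NUMA1, which focuses microtubules at the spindle poles.

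Of 12 proliferation genes 9 were higher and 3 lower, with a median of 0.15, and replicate 3 was the lowest of both groups in 11. None passed limma without the block (beside 7.40% of all gene names), and 3 did with it (25%, beside 14.1%). These were TOP2A (0.65, adjusted p = 0.0334), CDK1 (0.46, adjusted p = 0.0371) and PCNA (0.40, adjusted p = 0.0366). TOP2A, which untangles DNA, and MKI67, with 0.63 (adjusted p = 0.185), came nearest to KIF14 in this list and lay under it by more than 1 log2 unit. Of 13 light chains and adaptors of transport kinesins 8 were higher and 5 lower, with a median of 0.08. None passed by its brightest probe (beside 7.40% of all gene names). KIFAP3, the accessory subunit of kinesin-2, differed by 0.21 (SE 0.11, adjusted p = 0.301), KLC2, a light chain of conventional kinesin, by -0.46 (SE 0.10, adjusted p = 0.0503), and TRAK2, which ties kinesin to mitochondria, by 0.49 (SE 0.12, adjusted p = 0.0648). Probes other than the brightest rose for BICD1 (1.1), BICD2 (0.90) and SPAG9 (0.40).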

How the data were processed

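The authors hybridised Cy3-labelled RNA to 1-colour Agilent whole human genome arrays and read them with Feature Extraction 10.5.1.1. The deposited array files hold intensity values, already background-corrected by the scanner software (gProcessedSignal), and a further deposited table from the authors gives log2 values for 33169 probes, which differ from the quantile-normalized values used here by a median of 0.0040 log2 units. From the intensities, log2 values were quantile-normalized, spots not found were set to missing, replicate spots were averaged, and probes missing on at most 1 of 6 arrays were kept. Groups came from the sample titles, 3 arrays each, so precision is limited by 6 arrays, with a median standard error of 0.14 log2 units. limma 3.58.1 in R 4.3.3 tested pre-miR-27a minus pre-control with Benjamini-Hochberg adjustment over all probes at 0.05, after a check on simulated data. The simulated noise was independent between probes and arrays, so the check does not cover effects shared by a replicate number or a slide. The labels call the arrays biological replicates.

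The members and gene lists were chosen with earlier results of these data known. Same-numbered arrays deviated together over 31717 probes (r = 0.396, 0.456 and 0.409, against -0.266 to -0.123 for different numbers). This was taken as pairing by number, which the labels do not state. Deviations from a group mean sum to 0, so the values for different numbers are no separate comparison. Values on every array are given for KIF14, for kinesins whose brightest probe passed, and for the 3 largest differences that did not pass in each role. They are also given for some, not all, of the probes that disagree with the brightest. Other kinesins named were chosen after their values were seen. Alternatives were 75th percentile scaling, normexp with an offset of 50, no filter, a stricter filter, the replicate block and the authors' table. Others were a variance trend, the mean over a gene's probes, unpaired SAM with 20 relabellings, and leaving out each array. A filter on the positive and significant flag and leaving out both arrays of replicate 3 were added after seeing the data. Gene names are those of the array, updated through RefSeq synonyms or accessions for listed genes, and coordinates are hg18 as the files give them.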

Additional observations from a re-analysis of the deposited data

How the results depend on the processing

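With KIF14 counted, although it is no test there, the 5 kinesin probes called became 8 with the replicate block (8 higher, 0 lower, as 14.9% of all probes passed), 8 with the authors' deposited log2 values (5 higher, 3 lower, beside 10.1% of all), 8 with the positive and significant flag (5 higher, 3 lower, beside 9.97%) and 0 with both arrays of replicate 3 left out, where 0 of 36469 probes passed. Leaving out a single array gave 0 to 5. The counts under the other alternatives, unpaired SAM included, were 4 to 7, and unpaired SAM called the same 5 probes. With 75th percentile scaling the kinesin calls were 4 higher and 3 lower, the median of all probes moved from -0.02 to -0.09, and 39.2% of all calls were higher in place of 50.4%. Of the kinesins described array by array, KIF12 turned to 0.11 with normexp, KIF6 by its brightest probe turned to 0.16 without the filter, with the authors' values and with the positive flag, and to 0.95 as a mean over probes, and KIF20A ran from -0.0072 (without pre-miR-27a replicate 1) to 0.42 (without pre-control replicate 1) when single arrays were left out. KIF14 kept its direction under every alternative, between 1.46 and 2.02.

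A replicate block cannot alter the difference of a probe measured on all arrays. The calls of single kinesins that the pairing changed were those of KIF11, KIF3B, KIF1B, KIF6 and KIF5A. The median of the partners ran from 0.03 to 0.28, of the proliferation genes from 0.01 to 0.31 and of the adaptors from 0.03 to 0.12 over all alternatives. Signal near background limits KIF5A, KIF6, KIF12 and KIF19. The size of the rise of the KIF1B and KIF3B probes that passed also depended on the background correction. With normexp they differed by 0.86 and 0.69 in place of 1.36 and 0.93, and still passed.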
